A study of Mus musculus with 18 samples.

Results

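The 3 mammalian GW182 proteins and 7 factors that act after them in microRNA-guided mRNA decay were followed in MEFs (fibroblasts of mouse embryos, a cultured connective tissue cell) that lacked AGO2 or Dicer. The members were named by gene symbol: Tnrc6a, Tnrc6b and Tnrc6c for the GW182 proteins, Cnot1, Cnot7 and Cnot8 for the CCR4-NOT complex, and Ddx6, Dcp2, Edc4 and Xrn1 for decapping and decay. All gene-level rows and exon-level probe sets that carried a symbol or synonym of these genes were taken, whatever their values. Of the 10 genes, 9 had rows, with 10 of the 23332 gene-level rows and 195 of the 229581 exon-level probe sets, and Dcp2 was not analysed here. Tnrc6b had 2 gene-level rows and each of the other genes 1. The 195 probe sets fell to Xrn1 with 42, Tnrc6b with 35, Edc4 with 33, Cnot1 with 27, Tnrc6a with 18, Ddx6 with 16, Cnot7 with 13, Cnot8 with 10 and Tnrc6c with 1.

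The series put total RNA on an Affymetrix mouse exon array, where each probe set reads 1 exon or part of it, and its title links Argonaute proteins with silent chromatin and with the choice of exons. The groups were AGO2 null MEFs, Dicer null MEFs and wild-type MEFs, with 3 arrays each, and every array was deposited as a gene-level and an exon-level sample. Cultures of each genotype were kept for 3 days at 7% serum until nearly confluent. Only the AGO2 null cells had a source of their own, so in AGO2 null cells the genotype and the source of the line cannot be told apart. No label ties the 3 arrays of a genotype to different lines or animals. Genotype and cell line therefore cannot be told apart in Dicer null cells either. The labels call the samples biological replicates and do not say what was repeated. The spread behind each p-value is thus that of these samples and may be technical.

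Argonaute proteins loaded with a microRNA do not degrade most of their targets themselves. They bind a GW182 protein (TNRC6A, TNRC6B or TNRC6C in mammals), which recruits the CCR4-NOT and PAN2-PAN3 deadenylases to the bound mRNA. The poly(A) tail is shortened, DDX6 represses translation and promotes decapping, EDC4 holds the decapping enzyme DCP2 in an active complex, and XRN1 then degrades the uncapped mRNA from its 5′ end.

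The upstream sequences of the 3 GW182 genes and of Xrn1 are shown because these genes differed between genotypes at the gene level in different patterns. They are the 250 bases before the annotated start, credited to RefSeq on GRCm38.p6, all on the + strand and written 5′ to 3′. Capitals mark matches to the motifs searched on both strands. These were the GC box GGGCGG, the CCAAT box CCAAT, the TATA box TATAAA, the E-box CACGTG, the CRE TGACGTCA, the ETS motif ACTTCCGG and the NRF1 motif (GCGC, then AT, then GCGC). The windows lie at chr7:123123635-123123884 for Tnrc6a, chr15:80711063-80711312 and chr15:80798360-80798609 for the first and second starts of Tnrc6b, chr11:117654039-117654288 for Tnrc6c and chr9:95954510-95954759 for Xrn1.
Tnrc6a: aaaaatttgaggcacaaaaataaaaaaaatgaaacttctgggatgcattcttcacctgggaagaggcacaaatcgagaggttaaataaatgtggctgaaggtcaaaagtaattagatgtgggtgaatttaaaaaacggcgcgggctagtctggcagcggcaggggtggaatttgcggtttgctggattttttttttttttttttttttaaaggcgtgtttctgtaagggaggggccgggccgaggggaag
Tnrc6b, first start: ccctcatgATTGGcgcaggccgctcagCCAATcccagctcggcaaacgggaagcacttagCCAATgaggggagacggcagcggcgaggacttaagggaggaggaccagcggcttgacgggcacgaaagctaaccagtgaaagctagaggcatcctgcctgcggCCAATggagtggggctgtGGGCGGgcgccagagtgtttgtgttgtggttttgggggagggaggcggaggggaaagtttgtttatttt
Tnrc6b, second start: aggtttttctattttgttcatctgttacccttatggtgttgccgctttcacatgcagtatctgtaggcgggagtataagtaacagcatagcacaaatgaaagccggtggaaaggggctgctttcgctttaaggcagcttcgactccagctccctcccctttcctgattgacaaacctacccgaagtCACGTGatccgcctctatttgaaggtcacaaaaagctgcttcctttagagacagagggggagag
Tnrc6c: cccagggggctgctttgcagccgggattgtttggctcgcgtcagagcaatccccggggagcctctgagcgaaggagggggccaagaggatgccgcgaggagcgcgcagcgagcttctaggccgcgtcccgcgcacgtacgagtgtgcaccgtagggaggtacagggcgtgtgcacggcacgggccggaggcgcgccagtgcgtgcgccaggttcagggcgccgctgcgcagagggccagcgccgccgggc
Xrn1: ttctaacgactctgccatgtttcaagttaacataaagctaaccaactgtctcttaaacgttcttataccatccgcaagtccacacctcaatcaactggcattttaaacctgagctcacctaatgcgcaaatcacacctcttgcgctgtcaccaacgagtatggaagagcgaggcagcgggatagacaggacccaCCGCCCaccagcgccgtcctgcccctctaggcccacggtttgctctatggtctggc

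The Tnrc6a window held none of the 7 motifs and 9 CpG dinucleotides, with a GC content of 42.4%. The first Tnrc6b window had a GC content of 60% with 14 CpGs, 4 CCAAT boxes that begin 242, 223, 190 and 87 bases before the start, and 1 GC box 69 bases before it. The second Tnrc6b window, at 48% GC with 8 CpGs, held 1 E-box 64 bases before the start. The Tnrc6c window was the richest in GC of these 5, at 72.4% with 31 CpGs, and held none of the motifs. The Xrn1 window had 51.6% GC, 12 CpGs and 1 GC box 56 bases before the start. Over all 32851 windows of this length, 32.7% held a GC box, 33.8% a CCAAT box and 6.02% an E-box, and the median window had 52.4% GC and 6 CpGs. TATA boxes stood in 12.4% of them, CRE motifs in 1.55%, ETS motifs in 2.88% and NRF1 motifs in 0.782%, and in none of the 5 windows shown. Matches in these windows did not overlap each other. A match is a description of letters and not a binding site. Of the 9 members with rows, 6 had at least 1 window, 10 in all.

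The deposited values are log2 signals, with sample medians of 6.28 to 6.37 for gene-level rows and 6.93 to 7.10 for exon-level probe sets. The targeted genes followed the labels. Ago2 stood at 6.74, 6.92 and 6.65 in AGO2 null cells, at 9.23, 9.15 and 9.04 in Dicer null cells, and at 8.24, 8.20 and 8.24 in wild-type cells. Dicer1 stood at 8.42, 8.35 and 8.35 in Dicer null cells, at 9.40, 9.42 and 9.39 in AGO2 null cells, and at 9.17, 9.17 and 9.20 in wild-type cells. Of 12 fibroblast markers 11 were measured, and their summed linear level was 21800 to 22000 in AGO2 null, 11800 in each Dicer null and 15700 to 16500 in wild-type samples. Dicer null cells had 9 of the 11 lower and Dcn higher than wild-type cells, with Col1a2 at 6.36 ± 0.09 against 10.04 ± 0.03 (SD, n = 3 each), while Vim was not called. The sum of 7 measured epithelial markers was 1230 to 1690 in AGO2 null, 3810 to 4070 in Dicer null and 483 to 536 in wild-type samples. Krt18 and Krt19 were called higher in Dicer null cells, while Epcam, Cdh1, Krt5, Krt14 and Cldn4 were not. In AGO2 null against wild-type cells 6 of the 11 fibroblast markers were higher and 1 lower, and 3 of the 7 epithelial markers were higher. The highest sum over the macrophage, endothelial, neural and pluripotent lists was 618, of the neural list in a wild-type sample. In bulk RNA, fewer cells of one type and less RNA per cell cannot be told apart. The part of these markers in the differences below was not tested.

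A row is termed called where limma's p, adjusted by Benjamini and Hochberg's method across all 23332 gene-level rows, was under 0.05. The comparisons with the wild type share its 3 samples, so their values stand side by side and are not independent. In AGO2 null against wild-type cells 3 of the 10 member rows were called, 1 higher (Cnot7) and 2 lower (Tnrc6c and Xrn1), where 21% of all rows were called, 11.8% higher and 9.17% lower. In Dicer null against wild-type cells 5 of 10 were called, 4 higher (Tnrc6a, both Tnrc6b rows and Cnot7) and 1 lower (Xrn1), where 26.8% of all rows were called, 11.2% higher and 15.7% lower. Between AGO2 null and Dicer null cells 5 of 10 were called, all lower in AGO2 null cells (Tnrc6a, both Tnrc6b rows, Tnrc6c and Cnot7), where 26.3% of all rows were called, 16.9% higher and 9.45% lower. The 3 samples of a group did not overlap with those of the other for 3, 7 and 7 of the 10 rows in these comparisons, where 33.2%, 42.8% and 41.2% of all rows did not. The median difference over the member rows was -0.01, 0.10 and -0.17, where over all rows it was 0.02, -0.01 and 0.03.

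**Figure D1:**
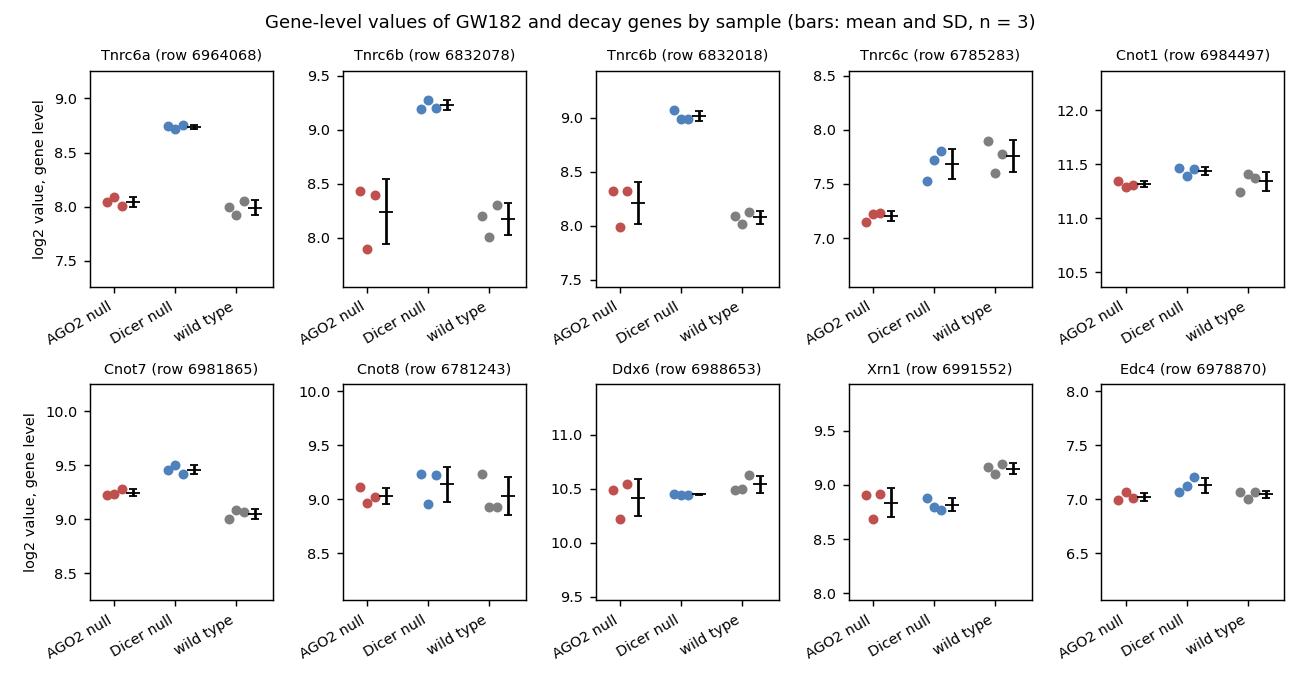
Gene-level log2 signal of the 10 member rows in each of the 9 samples, 1 panel per row, with AGO2 null and Dicer null left of wild type; points are samples and bars the mean ± SD (n = 3). Tnrc6a and both Tnrc6b rows stand apart in Dicer null cells, Tnrc6c in AGO2 null cells, and Xrn1 is lower in both null lines than in wild-type cells.

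Tnrc6a encodes the GW182 family member first recognised by a human autoimmune serum and named for its glycine and tryptophan repeats. Its gene-level signal was 8.04, 8.09 and 8.001 in AGO2 null cells, 8.75, 8.71 and 8.75 in Dicer null cells and 7.99, 7.92 and 8.06 in wild-type cells. The 3 Dicer null samples lay above all others, and the AGO2 null samples overlapped with the wild type. Dicer null cells were 0.75 higher than wild-type cells on the log2 scale, which is 1.68-fold (SE 0.05, limma adjusted p = 1.94e-05). AGO2 null cells were 0.05 above wild-type cells (95% interval -0.06 to 0.17, adjusted p = 0.548 by limma) and 0.70 below Dicer null cells (difference -0.70, adjusted p = 4.69e-05 by limma).

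Tnrc6b, the second GW182 gene, showed the same order of groups in both of its rows. The row 6832078 read 8.44, 7.90 and 8.39 in AGO2 null cells, 9.19, 9.28 and 9.20 in Dicer null cells and 8.21, 8.01 and 8.30 in wild-type cells. The row 6832018 read 8.32, 7.99 and 8.32 in AGO2 null cells, 9.07, 8.99 and 8.99 in Dicer null cells and 8.09, 8.01 and 8.13 in wild-type cells. In each row the Dicer null samples lay above all others, and the second AGO2 null sample lay below the other two of its group and below every wild-type sample.

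The 2 Tnrc6b rows rose in Dicer null against wild-type cells by 1.05 (2.07-fold, SE 0.15, limma adjusted p = 0.00106) and by 0.94 (1.92-fold, SE 0.09, limma adjusted p = 0.000176). AGO2 null cells were 0.07 (95% interval -0.27 to 0.41) and 0.13 (-0.08 to 0.35) above wild-type cells, and neither row was called (adjusted p = 0.797 and 0.394 by limma). Without the second AGO2 null sample the row 6832018 was called higher in AGO2 null than in wild-type cells, by 0.24 (limma adjusted p = 0.0181). AGO2 null cells were below Dicer null cells in both rows, with differences of -0.98 and -0.81 (limma adjusted p = 0.00188 and 0.000531).

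Tnrc6c, the third GW182 gene, had another pattern, on 1 probe set that is also the whole of its gene-level row. It read 7.15, 7.22 and 7.23 in AGO2 null cells, 7.53, 7.72 and 7.81 in Dicer null cells and 7.90, 7.60 and 7.78 in wild-type cells. The AGO2 null samples lay below all others, while Dicer null and wild-type samples overlapped. Tnrc6c was lower in AGO2 null than in wild-type cells by a difference of -0.56 (0.679 times the wild-type signal, SE 0.10, limma adjusted p = 0.00502), and lower than in Dicer null cells by a difference of -0.48 (limma adjusted p = 0.00749). Dicer null and wild-type cells differed by -0.07 (95% interval -0.30 to 0.15, limma adjusted p = 0.672). In the exon-level fit the same values gave a limma adjusted p of 0.0162 for AGO2 null against wild-type cells. It was 0.0543 without AGO2 null replicate 1 and 0.0538 without wild-type replicate 1. Against Dicer null cells it was 0.0256, and that call was lost in 5 of 16 other settings (limma adjusted p up to 0.101).

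**Figure D2:**
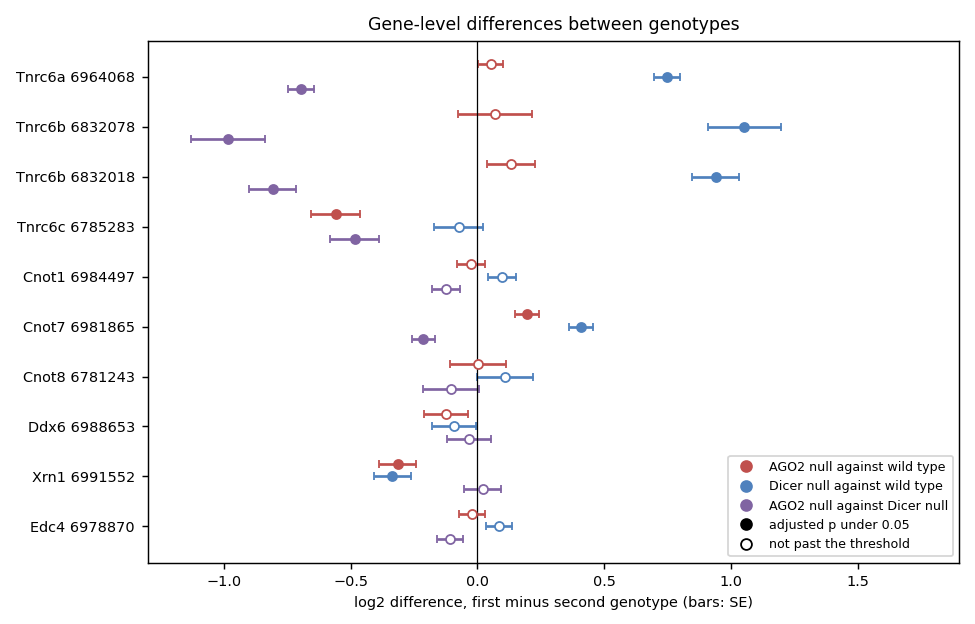
Gene-level log2 difference of each member row (points) with its standard error from the limma fit (bars), for AGO2 null minus wild type, Dicer null minus wild type and AGO2 null minus Dicer null. Tnrc6b reaches 1.05 and 0.94 and Tnrc6a 0.75 in Dicer null against wild-type cells, where their AGO2 null differences of 0.07, 0.13 and 0.05 were not called; filled points were called.

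The genes whose pattern over the 9 samples was most like that of a GW182 row were taken by Pearson's r among 8634 rows with 1 symbol and at least the median level. For Tnrc6a they were Krt18 and Fam91a1 (r = 0.993 each) and Lifr, a cytokine receptor subunit (r = 0.993). For Tnrc6b they were Gpcpd1 (0.991), Ppp1r10 (0.987) and Zhx1 (0.987) with the row 6832078, and Gpcpd1, Tnnc1 and Traf6 with the row 6832018 (r = 0.993, 0.993 and 0.993). For Tnrc6c they were Mark3 (0.961), Airn (0.957) and Cep78 (0.956). The samples form 3 genotype clusters, so these values describe which genes share the order of the genotypes and carry no test. Krt18, an epithelial keratin, stood at 7.90 in AGO2 null cells, 11.61 in Dicer null cells and 7.31 in wild-type cells (means, n = 3 each).

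Of the CCR4-NOT genes, Cnot7, one of the 2 closely related CAF1-type deadenylases, differed between genotypes. Its gene-level signal was 9.22, 9.23 and 9.28 in AGO2 null cells, 9.46, 9.50 and 9.42 in Dicer null cells and 9.00, 9.09 and 9.06 in wild-type cells. The groups did not overlap, with Dicer null cells highest and wild-type cells lowest. Dicer null cells were 0.41 above wild-type cells (1.33-fold, SE 0.05, limma adjusted p = 0.000382). AGO2 null cells were 0.19 above wild-type cells (1.14-fold, SE 0.05, limma adjusted p = 0.0220) and 0.21 below Dicer null cells (difference -0.21, limma adjusted p = 0.0116). The AGO2 null difference from the wild type was lost under quantile normalization, where it was 0.09 (limma adjusted p = 0.281), and in 5 other settings. Among these were the fits without AGO2 null replicate 3 (limma adjusted p = 0.0667), wild-type replicate 1 (0.0683) and wild-type replicate 3 (0.0516), and with the replicate block (0.0528). By contrast, the per-sample median of Cnot7's 13 probe sets, which was probe set 5270431 in all 9 samples, gave 0.68 (limma adjusted p = 0.000864). The median of the 13 probe sets' own differences was 0.14. On the per-sample median AGO2 null and Dicer null cells differed by -0.06 (limma adjusted p = 0.720).

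Cnot1, the scaffold on which CCR4-NOT assembles, and Cnot8, the other CAF1-type deadenylase, had no called gene-level difference. Cnot1 averaged 11.32 ± 0.03 in AGO2 null cells, 11.44 ± 0.04 in Dicer null cells and 11.34 ± 0.09 in wild-type cells (SD, n = 3 each). Its difference between AGO2 null and Dicer null cells was -0.12 (95% interval -0.25 to 0.01, limma adjusted p = 0.155), and it was called under quantile normalization (-0.22, limma adjusted p = 0.0157) and median centring (-0.18, limma adjusted p = 0.0491). Cnot8 averaged 9.03 ± 0.07 in AGO2 null cells, 9.14 ± 0.16 in Dicer null cells and 9.03 ± 0.18 in wild-type cells (SD, n = 3 each). The 95% intervals of its differences from the wild type were -0.25 to 0.26 for AGO2 null and -0.15 to 0.37 for Dicer null cells.

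Xrn1, the 5′ to 3′ exonuclease at the end of the pathway, was lower in both null lines. It read 8.91, 8.68 and 8.92 in AGO2 null cells, 8.88, 8.80 and 8.77 in Dicer null cells and 9.16, 9.10 and 9.19 in wild-type cells. All 6 null samples lay below all 3 wild-type samples, and the null lines overlapped with each other. The difference from wild-type cells was -0.34 in Dicer null cells (0.792 times the wild-type signal, SE 0.07, limma adjusted p = 0.0111). In AGO2 null cells it was -0.31 (0.804 times, SE 0.07, limma adjusted p = 0.0197). That second call was lost in a fit of the 6 samples alone (limma adjusted p = 0.0623), without wild-type replicate 1 (0.0592) or 3 (0.0644), and on the median of the 42 probe sets (-0.18, adjusted p = 0.305). AGO2 null and Dicer null cells differed by 0.02 (95% interval -0.15 to 0.19, limma adjusted p = 0.885).

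Ddx6, the helicase that links repression to decapping, and Edc4, the decapping scaffold, were not called in any of the 3 comparisons. Ddx6 averaged 10.42 ± 0.17 in AGO2 null cells, 10.45 ± 0.0049 in Dicer null cells and 10.54 ± 0.08 in wild-type cells (SD, n = 3 each). Its 95% intervals against the wild type were -0.33 to 0.08 for AGO2 null and -0.29 to 0.11 for Dicer null cells. Edc4 averaged 7.02 ± 0.04 in AGO2 null cells, 7.13 ± 0.07 in Dicer null cells and 7.05 ± 0.04 in wild-type cells (SD, n = 3 each). Under quantile normalization Edc4 was called higher in Dicer null than in wild-type cells (0.19, limma adjusted p = 0.0416) and lower in AGO2 null than in Dicer null cells (-0.21, limma adjusted p = 0.0287).

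Single probe sets were tested in the same way over the whole exon-level table. Probe sets of a gene share its transcripts and are not replicates. In AGO2 null against wild-type cells 14 of the 195 member probe sets were called, 3 higher and 11 lower, where 15.4% of all probe sets were called, 9.07% higher and 6.35% lower. In Dicer null against wild-type cells 57 were called, 50 higher and 7 lower, where 21.1% of all were called, 8.93% higher and 12.2% lower. Between AGO2 null and Dicer null cells 41 were called, all lower in AGO2 null cells, where 18.7% of all were called, 12.6% higher and 6.08% lower. As shares of the 195 these are 7.18%, 29.2% and 21%. The samples of the groups did not overlap for 43, 109 and 86 member probe sets, where 31.3%, 39.6% and 37.9% of all probe sets did not.

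**Figure D3:**
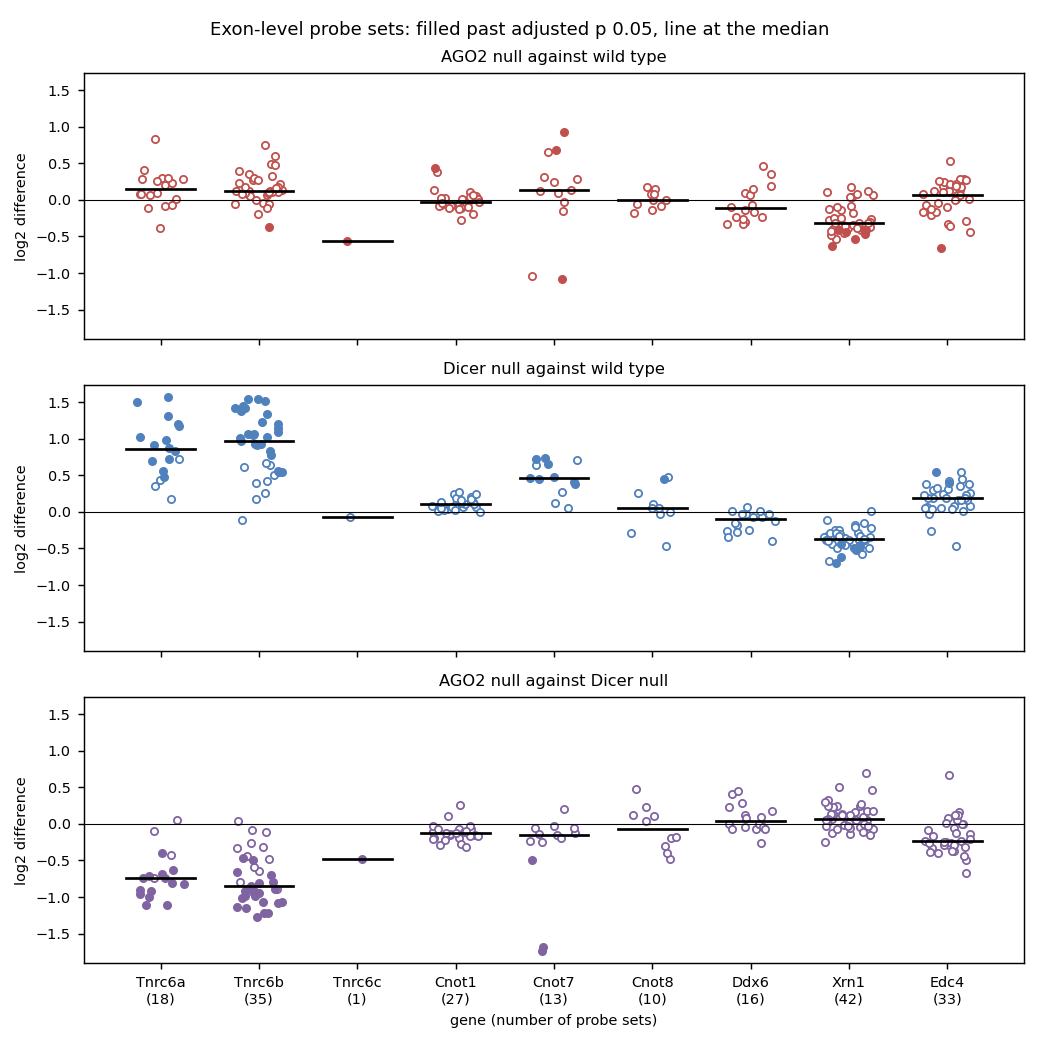
Log2 difference of every member probe set (points), 1 column per gene with its number of probe sets, in panels for AGO2 null minus wild type, Dicer null minus wild type and AGO2 null minus Dicer null; filled points were called and bars mark the median. In Dicer null cells 18 of 18 Tnrc6a and 34 of 35 Tnrc6b probe sets lie above 0, and 41 of 42 Xrn1 probe sets lie below 0.

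The 50 probe sets called higher in Dicer null cells belonged to Tnrc6b (25 of its 35), Tnrc6a (14 of 18), Cnot7 (8 of 13), Edc4 (2 of 33) and Cnot8 (1 of 10). Tnrc6a's 18 probe sets were all above 0 in Dicer null against wild-type cells, from 0.17 to 1.57 with a median of 0.86. The largest called rise was probe set 4454902, at 8.21, 8.57 and 8.35 in Dicer null against 7.35, 6.15 and 6.94 in wild-type cells, a difference of 1.57 (SE 0.36, limma adjusted p = 0.013). In AGO2 null against wild-type cells none of the Tnrc6a probe sets was called by limma, 2 had an unadjusted p under 0.05, and the median difference was 0.15.

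Tnrc6b's probe sets differed by a median of 0.96 in Dicer null against wild-type cells, from -0.11 to 1.55. The largest called rise was probe set 4487151, at 10.08, 9.88 and 9.99 in Dicer null against 8.16, 8.39 and 8.76 in wild-type cells (difference 1.55, SE 0.18, limma adjusted p = 0.000307). In AGO2 null cells 1 Tnrc6b probe set was called against the wild type. This was 5169303, at 10.23, 10.07 and 10.16 in AGO2 null, 11.09, 11.06 and 11.07 in Dicer null and 10.54, 10.43 and 10.58 in wild-type cells. The 3 groups did not overlap there, and the difference of AGO2 null from wild-type cells was -0.37 (limma adjusted p = 0.0432). That call was lost in 11 of 16 other settings (limma adjusted p up to 0.129). Among these were all fits with 1 of the 9 samples left out (0.0545 to 0.116).

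Xrn1's probe sets differed by a median of -0.31 in AGO2 null and of -0.37 in Dicer null cells against the wild type, with 35 and 41 of the 42 below 0. In each comparison 7 (16.7%) were called, all lower. Of all probe sets 15.4% were called in AGO2 null and 21.1% in Dicer null cells, 6.35% and 12.2% lower. The largest called falls were probe set 5451670 in AGO2 null cells, at 7.95, 8.10 and 8.42 against 8.85, 8.68 and 8.85 in wild-type cells (difference -0.63, limma adjusted p = 0.0171), and 5394203 in Dicer null cells, at 8.76, 8.45 and 8.71 against 9.37, 9.27 and 9.37 (difference -0.70, limma adjusted p = 0.00735). The first of these was not called in 4 of 16 other settings. Among them were the fits without AGO2 null replicate 1 (limma adjusted p = 0.0581), wild-type replicate 1 (0.0553) and wild-type replicate 3 (0.0538).

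Ddx6 had no called probe set in either null line against the wild type by limma, with 3 of 16 at an unadjusted p under 0.05 in each. Cnot1 had 1 called in AGO2 null cells and none of 27 in Dicer null cells, where 2 had an unadjusted p under 0.05. The Cnot8 call in Dicer null cells was probe set 4575653 (0.46, limma adjusted p = 0.0443). It was lost in 8 of 16 other settings. Among them were the fits without any 1 wild-type sample, Dicer null replicate 1 or 3, or AGO2 null replicate 3 (0.0599 to 0.151). Edc4's largest called rise in Dicer null cells was probe set 4616347 (0.54, limma adjusted p = 0.0306), lost in 6 of 16 other settings. Among them were the fits without any 1 Dicer null sample or wild-type replicate 1 or 2 (0.0531 to 0.0965). Edc4 also had 1 probe set lower in AGO2 null cells, 5406079, at 6.67, 6.59 and 6.96 against 7.51, 7.35 and 7.34 in wild-type cells (difference -0.66, limma adjusted p = 0.0113, called in all 16 other settings).

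Cnot7's probe sets moved apart in AGO2 null cells. The probe set 5131483 was higher, at 9.30, 8.77 and 9.22 in AGO2 null against 7.90, 8.35 and 8.23 in wild-type cells (difference 0.93, limma adjusted p = 0.00658). The probe set 4751667 was lower, at 4.41, 4.09 and 3.96 in AGO2 null against 4.88, 5.51 and 5.32 in wild-type cells (difference -1.09, limma adjusted p = 0.00397). That second probe set has a low signal, and in Dicer null cells it read 5.81, 5.97 and 5.91. In Dicer null cells the largest called rise was probe set 5270431, at 9.57, 9.53 and 9.50 against 8.79, 8.71 and 8.87 in wild-type cells (difference 0.74, limma adjusted p = 0.00191).

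**Figure D4:**
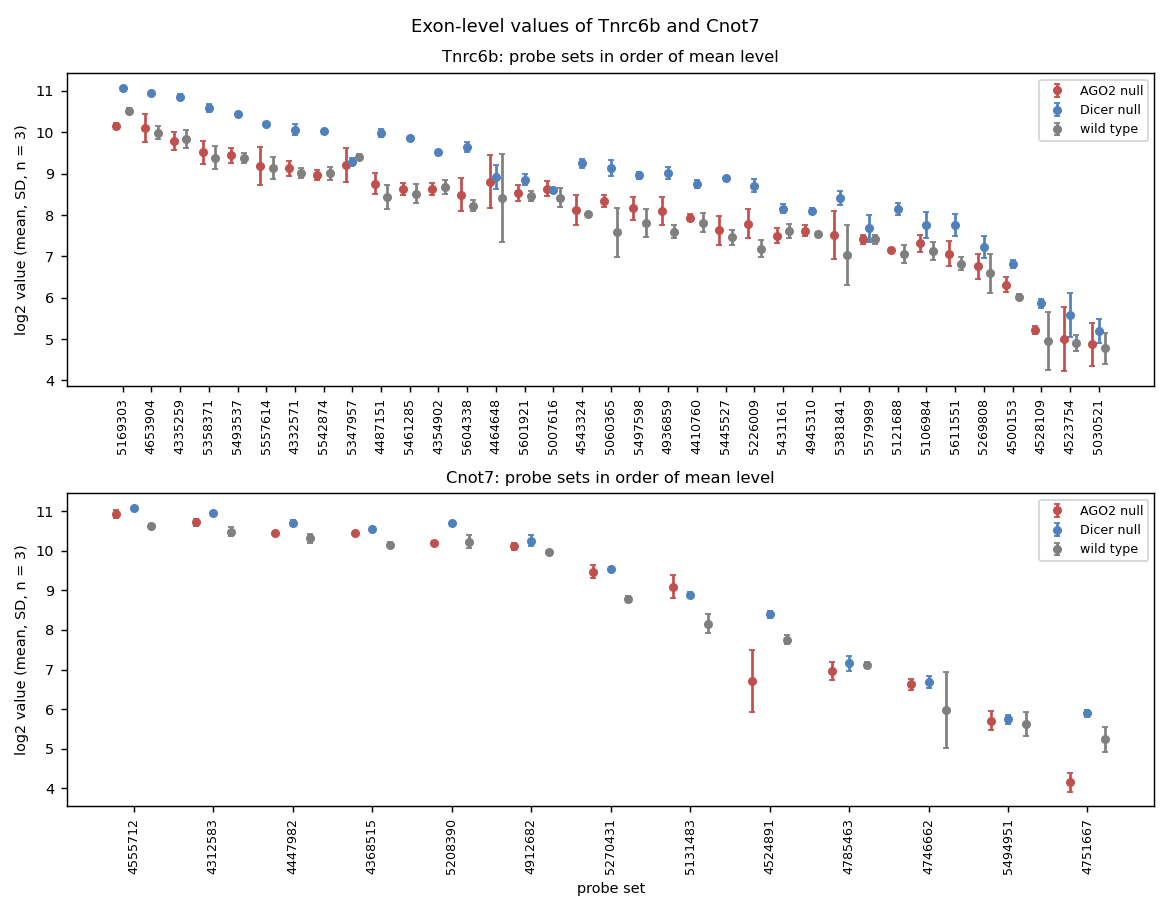
Log2 signal of each probe set of Tnrc6b (upper panel) and Cnot7 (lower panel), ordered by mean level, with AGO2 null and Dicer null left of wild type; points are means and bars the SD (n = 3). The Tnrc6b probe set 5007616 lies at nearly the same level in all genotypes, while the Tnrc6b probe set 4487151 is 1.55 higher in Dicer null than in wild-type cells.

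Exon usage was measured by the splicing index, for which the sample's median over a gene's probe sets is subtracted from each of them on the log2 scale. The test covered 114158 probe sets in 7832 genes, and 185 of them were member probe sets, with none of Tnrc6c. Since the level of the gene is removed, a flat probe set in a gene that rises gets a negative index difference. In AGO2 null against wild-type cells 8 member probe sets were called (4.32%, where 5.91% of all were), in Dicer null against wild-type cells 8 (4.32%, where 6.77% were), and between AGO2 null and Dicer null cells 7 (3.78%, where 5.96% were). The split of the last was 2 higher and 5 lower as deposited, and 3 and 3 after quantile normalization.

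The Tnrc6b probe set 5007616 had the largest called index difference of its gene in Dicer null cells. It read 8.60, 8.56 and 8.64 in Dicer null cells, 8.52, 8.54 and 8.84 in AGO2 null cells and 8.57, 8.17 and 8.52 in wild-type cells, and its level was not called (0.18, limma adjusted p = 0.475). Relative to its gene it was lower in Dicer null than in wild-type cells by an index difference of -0.78 (SE 0.11, limma adjusted p = 0.0041), and it kept this call in all 18 other settings. In Tnrc6a the probe set 4783756 rose in level by 0.47 in Dicer null cells, where the per-sample median of the gene rose by 1.09. Its index difference was -0.62 (limma adjusted p = 0.0149). With the mean of the gene's probe sets in place of the median it was -0.39 (limma adjusted p = 0.0143). The call from the median was lost without any 1 Dicer null sample or wild-type replicate 1 (0.0517 to 0.0586). In AGO2 null cells the Tnrc6b probe set 5169303 had an index difference of -0.58 from the wild type (limma adjusted p = 0.0218). It was lost in 4 of 18 other settings (limma adjusted p up to 0.0811). Among them were the fits without AGO2 null replicate 1 (0.0703) or 3 (0.0631) or wild-type replicate 2 (0.0635).

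Cnot1 had 1 called index difference in AGO2 null against wild-type cells, at probe set 4338783, and this index call held under all 18 other settings. It read 10.97, 10.79 and 10.99 in AGO2 null cells, 10.66, 10.65 and 10.65 in Dicer null cells and 10.52, 10.49 and 10.44 in wild-type cells. The 3 groups did not overlap. Its index difference of AGO2 null from wild-type cells was 0.53 (SE 0.08, limma adjusted p = 0.0077), and its level rose by 0.43 (limma adjusted p = 0.0228), while the gene-level row of Cnot1 differed by -0.03. The call of the level was lost in 6 of 16 other settings (limma adjusted p up to 0.0842). Among them were the fits without AGO2 null replicate 1 or 3 or wild-type replicate 2 or 3 (0.0521 to 0.0753). Edc4's probe set 5406079 had an index difference of -0.59 in AGO2 null cells (limma adjusted p = 0.0193). That call was lost in 4 of 18 other settings (limma adjusted p up to 0.0751). Among them were the fits without AGO2 null replicate 1 (0.0663) or wild-type replicate 1 (0.0542) or 2 (0.0554). In Ddx6 the probe set 5543554 had an index difference of -0.34 between AGO2 null and Dicer null cells (limma adjusted p = 0.0357). It was lost in 11 of 18 other settings. Among them were the fits without any 1 sample of either null line (0.0565 to 0.128) and without wild-type replicate 3 (0.0502).

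Cnot7 held 5 of the 8 calls in AGO2 null cells, all lower. Its median probe set was 5270431 in all 9 samples, which itself was higher in both null lines, so 10 of the 12 tested indices were below 0 in AGO2 null and 11 of 12 in Dicer null cells. The 12 include 5270431 itself, whose index from the median is 0 in every sample, so it could neither fall below 0 nor be called. With the mean of the probe sets in place of the median, 4 and 7 of the 12 were below 0, and 3 were called in AGO2 null cells. The largest difference was at probe set 4524891, which read 6.72, 5.93 and 7.48 in AGO2 null cells, 8.38, 8.48 and 8.32 in Dicer null cells and 7.80, 7.83 and 7.62 in wild-type cells. All 3 AGO2 null samples lay below all others and were the most spread. Its index difference from wild-type cells was -1.72 from the median (limma adjusted p = 0.0151) and -1.13 from the mean (limma adjusted p = 0.0353). The first was lost in 3 of 18 other settings (limma adjusted p up to 0.0657). Among them were the fits without AGO2 null replicate 1 (0.0561) or wild-type replicate 2 (0.0529). Its level difference of -1.04 was not called (limma adjusted p = 0.059).

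Beyond the members, 80 of 99 listed genes of the decay and microRNA machinery were measured at the gene level. These include the targeted genes Ago2 and Dicer1. In AGO2 null against wild-type cells 12 were higher and 6 lower (22.5% called, where 21% of all rows were, median difference 0.04), in Dicer null against wild-type cells 12 and 16 (35%, where 26.8% of all rows were, median -0.04), and between AGO2 null and Dicer null cells 20 and 12 (40%, where 26.3% of all rows were, median 0.07). These splits depended on the scaling. They were 5 and 10, 17 and 14, and 11 and 19 after quantile normalization, and 12 and 6, 20 and 9, and 16 and 16 after median centring, in the same order of comparisons. Of 11 CCR4-NOT partners 2 were higher and 2 lower in AGO2 null cells, and 3 higher and 1 lower in Dicer null cells. That is 36.4% called in each, where 21% and 26.8% of all rows were.

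Cnot6l, a CCR4-type deadenylase that works beside CNOT7 and CNOT8, averaged 9.80 ± 0.01 in AGO2 null cells, 10.06 ± 0.05 in Dicer null cells and 9.47 ± 0.07 in wild-type cells (SD, n = 3 each). It was higher than the wild type by 0.33 in AGO2 null cells (limma adjusted p = 0.00324) and by 0.59 in Dicer null cells (limma adjusted p = 8.65e-05). Btg1, an antiproliferative protein that binds the CAF1 deadenylases, was lower by differences of -0.34 in AGO2 null and -0.69 in Dicer null cells (limma adjusted p = 0.00808 and 0.000131). Tob1, a related adaptor, was lower in AGO2 null cells (-0.68, limma adjusted p = 0.017), at 7.84, 7.32 and 7.94 against 8.31, 8.32 and 8.50 in wild-type cells. Btg2 was higher in Dicer null cells (0.54, limma adjusted p = 0.00118).

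Of 17 measured decapping and repression genes 1 was called in AGO2 null and 3 in Dicer null cells against the wild type. These are 5.88% and 17.6%, where 21% and 26.8% of all rows were called. Patl1, which bridges DDX6 and the decapping complex, was higher in both, by 0.34 in AGO2 null (limma adjusted p = 0.00149) and 0.52 in Dicer null cells (limma adjusted p = 7.62e-05). Dcps, the scavenger decapping enzyme, was lower in Dicer null cells (-0.58, limma adjusted p = 0.00239), as was Lsm6 (-0.41, limma adjusted p = 0.041). Of 15 exonucleases and exosome subunits 3 were higher and none lower in AGO2 null cells, and 2 were higher and 3 lower in Dicer null cells. Called were 20% and 33.3% of them. Exosc1, an exosome cap subunit, was higher by 0.54 in AGO2 null and 0.70 in Dicer null cells (limma adjusted p = 0.0269 and 0.00584). Its AGO2 null samples read 10.17, 10.66 and 10.18, against 9.89, 9.68 and 9.82 in wild-type cells. Xrn2, the nuclear relative of XRN1, was higher in Dicer null cells by 0.27 (limma adjusted p = 0.00344), where Xrn1 was lower.

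Of 8 other deadenylases and poly(A)-binding factors 1 was higher in AGO2 null cells, and 3 were lower in Dicer null cells. These are 12.5% and 37.5%, where 21% and 26.8% of all rows were called. Both counts include Paip2b, an inhibitor of poly(A)-binding protein, which differed from the wild type by 0.33 in AGO2 null and -0.55 in Dicer null cells (limma adjusted p = 0.00579 and 0.000245). Of 10 sequence-specific decay factors 1 was higher and 2 lower in AGO2 null cells, and 1 was higher and 3 lower in Dicer null cells. Called were 30% and 40% of them. Zfp36, which recruits deadenylases to AU-rich mRNAs, was lower in Dicer null cells (-0.60, limma adjusted p = 0.000187). None of 4 measured nonsense-mediated decay genes was called in AGO2 null cells by limma, none had an unadjusted p under 0.05, and in Dicer null cells Upf1 was higher (0.27) and Smg6 lower (-0.19).

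Of 15 measured Argonaute and microRNA biogenesis genes 4 were higher and 2 lower in AGO2 null cells, and 4 higher and 3 lower in Dicer null cells. Called were 40% and 46.7%, where 21% and 26.8% of all rows were. The lower genes include the targeted one of each line, Ago2 in AGO2 null and Dicer1 in Dicer null cells. Ajuba, a LIM-domain protein of the microRNA effector complex, was higher by 0.62 in AGO2 null and 1.02 in Dicer null cells (limma adjusted p = 0.000208 and 6.88e-06). Ago3 was higher in AGO2 null cells, at 8.51, 8.72 and 8.31 against 8.12, 7.86 and 8.12 in wild-type cells (difference 0.48, limma adjusted p = 0.0211). Mov10, a helicase bound to Argonaute, was lower in AGO2 null cells (-0.44, limma adjusted p = 0.00135) and higher in Dicer null cells (0.42, limma adjusted p = 0.00101). Ago2 itself was higher in Dicer null than in wild-type cells by 0.91 (limma adjusted p = 8.51e-05), in the samples where Tnrc6a and Tnrc6b were higher.

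**Figure D5:**
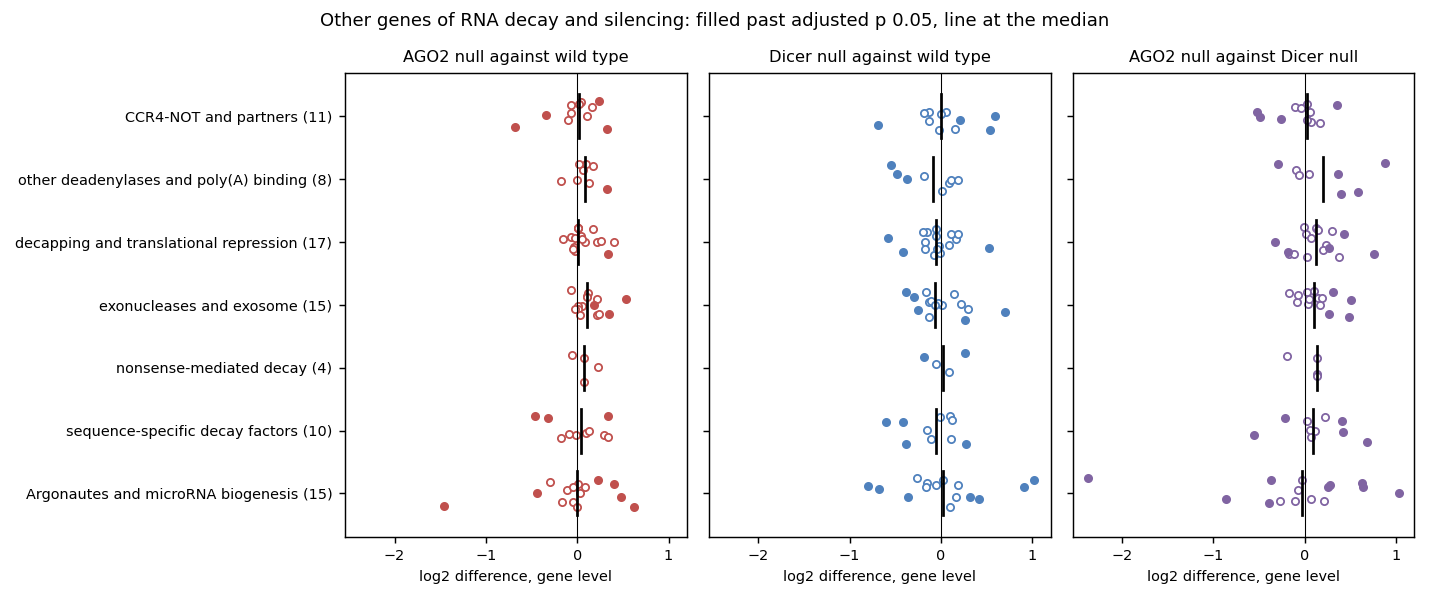
Gene-level log2 difference of each measured decay pathway gene (points), 1 row per list, in panels for AGO2 null minus wild type, Dicer null minus wild type and AGO2 null minus Dicer null; filled points were called and short bars mark each list's median. Each list holds points on both sides of 0, and Ago2 reaches -1.46 in AGO2 null and 0.91 in Dicer null cells against the wild type.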

How the data were processed

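RNA of MEF cultures was measured on 9 exon arrays. The log2 values that the authors deposited come in 2 tables, for gene-level rows and for exon-level probe sets. The genome build is mm8, per the submitters' processing notes. How they were background-corrected, summarised and normalized is not given in the sources used here. No detection measure or probe coordinate was used. The number of arrays limits the precision. Samples were grouped by the genotype in their labels.

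Symbols came from the platform annotation, updated through RefSeq (GRCm38.p6, names only), and rows with several symbols were not used. The fits ran on both whole tables and on the splicing index in limma (version 3.58.1, under R 4.3.3), by lmFit on group means of all 9 samples and then eBayes, with Benjamini-Hochberg adjustment and a threshold of 0.05. The index was tested in genes with at least 4 probe sets at or above the median gene level, for probe sets at or above the 25th percentile. The steps were tested on simulated data.

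The text names every member row. The probe sets it names come from the called ones with the largest rise, the largest fall and the largest index difference per member and comparison. The pathway genes it names come from up to 2 called genes of each list in each direction and comparison. Not all of these picks are named, and some named genes are also given in a comparison where they were not picked. The members and lists were chosen with earlier results of these data known. Alternatives were quantile normalization, median centring, a filter on dim rows, an offset of 50, fits of 6 samples, a trended robust variance, a replicate block, other gene summaries and leaving out each sample.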

Additional observations from a re-analysis of the deposited data

How the results depend on the processing

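No member result changed direction while called in any of the alternatives run. The rises of Tnrc6a, both Tnrc6b rows and Cnot7 and the fall of Xrn1 in Dicer null cells were called in all of them at the gene level. At the gene level the falls of Tnrc6c in AGO2 null cells were called in the 16 alternatives that gave it a value. The median of exon probe sets gave 1 value for each of 8 members, with the 2 Tnrc6b rows as 1 and none for Tnrc6c, so its counts are over fewer items. Member gene rows called in AGO2 null against wild-type cells were 3, with 1 in a fit of the 6 samples alone, 1 on the median of exon probe sets (Cnot7, with Xrn1 lost and Tnrc6c not tested) and 1 to 4 when single samples were left out. After quantile normalization no row was higher and 2 were lower. Between AGO2 null and Dicer null cells the 5 called rows stand against 2 genes, Tnrc6a and Tnrc6b, called on the median of exon probe sets, where Cnot7 was lost (-0.06, limma adjusted p = 0.720) and Tnrc6c was not tested. The 14 member probe sets called in AGO2 null against wild-type cells became 28 with dim rows left out, 25 with an offset of 50, 5 in the fit of 6 samples, 30 with a trended robust variance, 9 with the replicate block and 6 to 15 with single samples left out. Called splicing indices in that comparison were 8, with 1 in the fit of 6 samples and 2 to 11 with single samples left out. In Dicer null against wild-type cells the 8 became 14 with an offset of 50, 14 with the mean in place of the median and 2 to 13 with single samples left out. Between the null lines the 7 became 3 without a filter, 11 with an offset of 50, 3 with the replicate block and 1 to 9 with single samples left out. The 18 decay pathway genes called in AGO2 null against wild-type cells became 11 in the fit of 6 samples. The cause of these shifts was not tested, except that a fit of 6 samples has fewer samples. Same-numbered samples correlated in their deviations from group means by -0.10 to 0.19, and 1 of 9 such pairs was over 0.1. Differently numbered samples correlated by -0.18 to 0.14. With so few samples these values cannot decide whether the numbers pair the samples. Median centring shifted the median of all exon probe sets between AGO2 null and Dicer null cells by -0.15.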

Other observations

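A number of gene-level rows held the same value, in every deposited digit, in several samples. Of the 23332 gene-level rows 6538 (28%) repeated a value within the row, and 2066 had a value shared by 4 or more samples, where 3001 of the 229581 exon-level rows (1.31%) repeated one. Among the 10 member rows 2 did so, those of Edc4 and the Tnrc6b row 6832018.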
